A study of Homo sapiens with 12 samples.

Results

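RRAGD, RRAGC, DEPTOR, GPNMB, FLCN, FNIP1, FNIP2, TFEB, TFE3 and MITF are 10 genes of the lysosomal branch of mTORC1 signalling, and each was measured by 1 probe set. They are 10 of 18417 genes that the array names through a probe set with 1 gene symbol. The genes were chosen for their place in this pathway with earlier results of these arrays known, and the probe set was selected on the mean of the 12 arrays, the brightest being kept. The p-values below come from a fit over the whole array but are therefore not independent evidence for these genes. The RNA came from T47D-MTVL cells, a human breast cancer line that carries the progesterone receptor and 1 integrated luciferase reporter driven by the MMTV promoter. The cells received an siRNA against the chromatin remodeler CHD8 (siCHD8) or a control siRNA (siCt), were kept 48 h in serum-free medium, and were then exposed for 6 h to 10 nM of the synthetic progestin R5020 or to the ethanol vehicle (EtOH). The 4 conditions were siCHD8 with R5020, siCHD8 with EtOH, siCt with R5020 and siCt with EtOH, with 3 arrays each, named as biological replicates in the labels. All cells thus shared the transfection and the absence of serum, and every condition came from this 1 line.

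Rag GTPases work as pairs, RRAGA or RRAGB with RRAGC or RRAGD, and bring mTORC1 to the lysosome when amino acids are present. FLCN, held by FNIP1 or FNIP2, activates the RRAGC or RRAGD partner, DEPTOR binds mTOR and inhibits it, and mTORC1 keeps the transcription factors TFEB, TFE3 and MITF out of the nucleus by phosphorylation. These factors bind E-box sequences in promoters of lysosome and autophagy genes, and GPNMB, a glycoprotein of melanosomes and lysosomes, and RRAGD have both been described as targets of the family.

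The values are log2 intensities after RMA, so a difference of 1 is a doubling of signal, and levels of different probe sets were not compared. The median of an array lay between 4.52 and 4.62. The array siCt EtOH replicate 3 had the lowest mean correlation with the other arrays (Pearson's r 0.981 over probe sets, which are not independent, against 0.984 to 0.987 for the rest). CHD8 itself averaged 4.73 ± 0.098 in siCHD8 and 5.35 ± 0.15 in siCt with R5020, and 5.19 ± 0.20 in siCHD8 and 5.77 ± 0.12 in siCt with EtOH (SD, n = 3 each). Its siCHD8 arrays lay below the siCt arrays in both treatments, by a log2 difference of -0.62 with R5020 (limma, adjusted p = 0.0627) and -0.58 with EtOH (adjusted p = 0.0711), neither of which was called. CHD8 was also called lower after R5020 than after EtOH, in siCHD8 (-0.46, limma, adjusted p = 0.0258) and in siCt (-0.42, adjusted p = 0.0349). All 9 luminal epithelial markers examined stood at or above percentile 83.0 of the probe sets tested. After R5020 their median change was -0.56 in both siRNAs, but not every marker fell. In siCHD8 6 of 9 were called lower (KRT18, CDH1, ESR1, PGR, GATA3 and FOXA1), against 5.43% of all probe sets, and in siCt 5 of 9 (all of these but CDH1), against 6% of all probe sets. KRT8, KRT19 and EPCAM were not called in either siRNA. Their changes were -0.19, 0.30 and -0.17 in siCHD8, and -0.23, -0.09 and 0.06 in siCt. The mean level of the list was 8.97 to 9.04 in siCHD8 with R5020 and 9.50 to 9.69 in siCHD8 with EtOH, and 9.05 to 9.12 in siCt with R5020 and 9.64 to 9.77 in siCt with EtOH. The part of this shift in the members' R5020 changes was not tested. None of the 9 was called for siCHD8 against siCt with EtOH or with R5020, and 1, PGR, was called lower in the average over both treatments (-0.33, limma, adjusted p = 0.0464). All arrays came from 1 cell line, and in bulk RNA a smaller share of cells with these RNAs and less RNA per cell cannot be told apart. A probe set was called at an adjusted p under 0.05 by limma (two-sided, Benjamini-Hochberg over 21214 probe sets, 12 arrays in 1 fit).

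**Figure D1:**
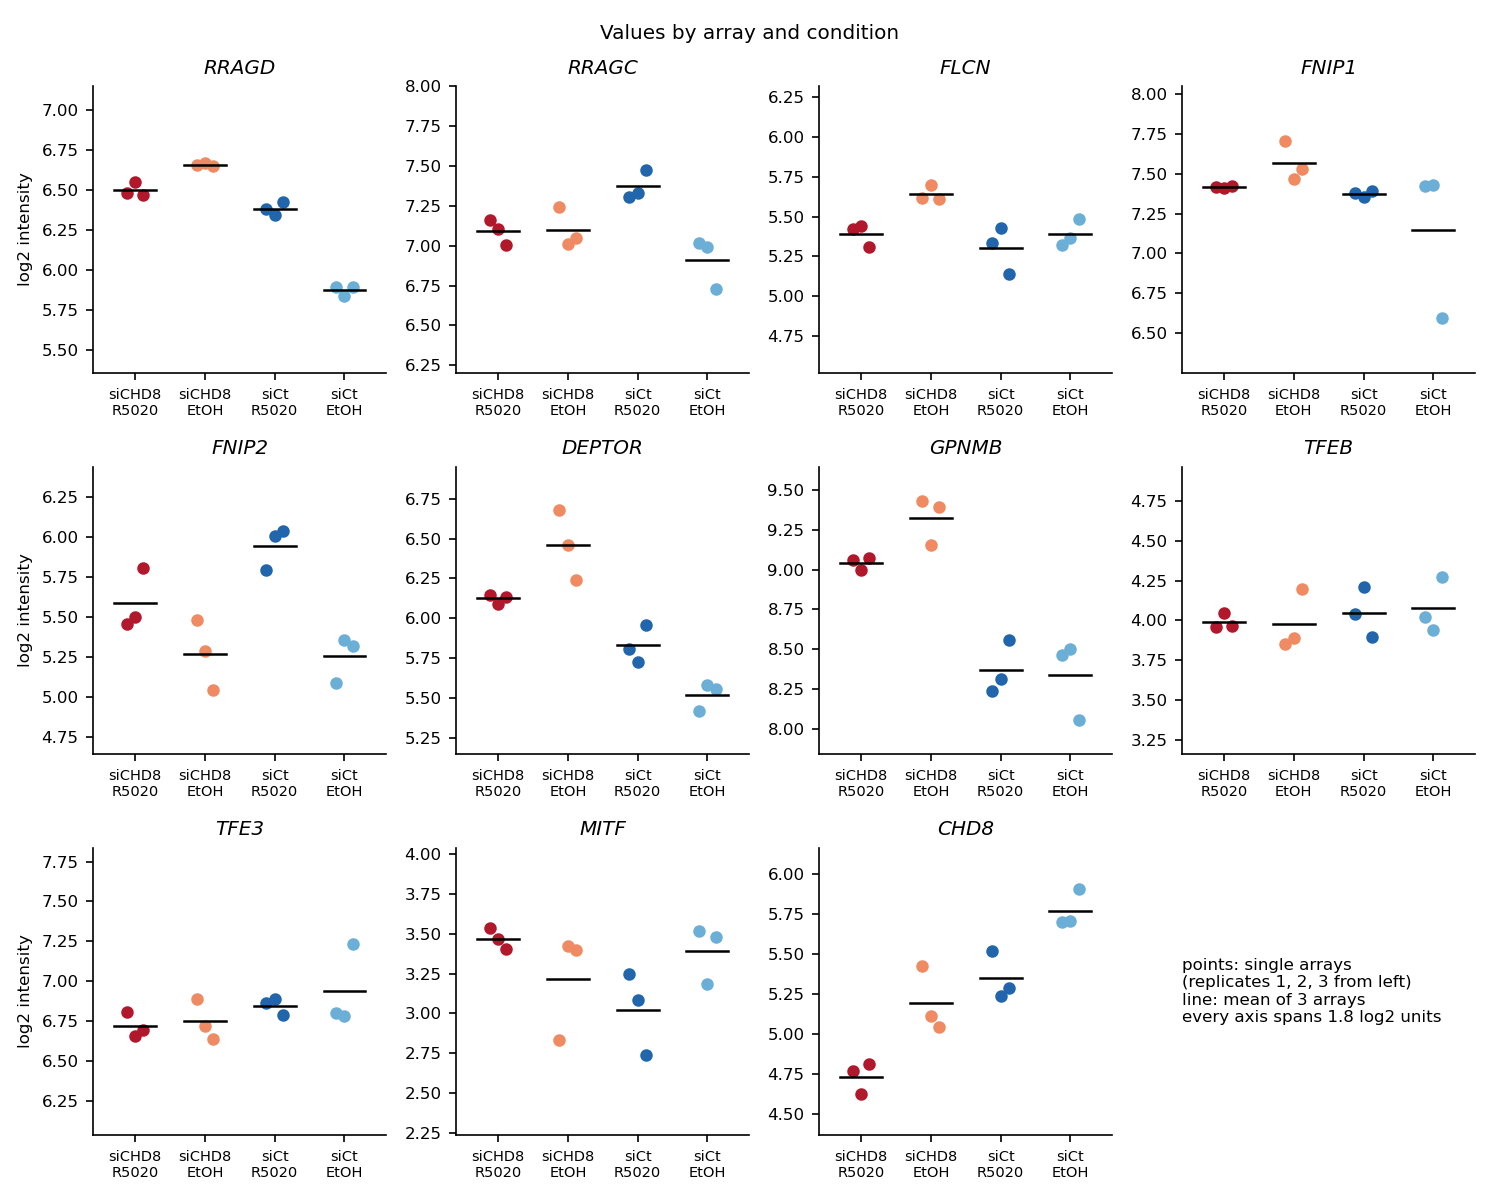
Log2 intensity (vertical axis, each panel spanning 1.8 units) of the 10 genes and of CHD8 on every array, by condition; points are single arrays and lines are means of 3. RRAGD shows siCt with EtOH alone at the bottom, GPNMB shows both siCHD8 conditions above both siCt conditions, and FNIP1 shows 1 siCt EtOH array at 6.59 with all the others at 7.35 or above.

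Without hormone, GPNMB, DEPTOR and RRAGD were higher in siCHD8 than in siCt. They were the 3 of 10 members called higher in this comparison, in which 0.113% of all probe sets were called higher. The number called was 24 higher and 38 lower, and by size of the difference GPNMB was rank 1, DEPTOR rank 3 and RRAGD rank 7 among those 24. No member was called lower.

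GPNMB had log2 intensities of 9.43, 9.16 and 9.39 in siCHD8 with EtOH, against 8.46, 8.50 and 8.06 in siCt with EtOH. The siCHD8 arrays all lay above the siCt arrays, and the difference was 0.99 on the log2 scale, or 1.98-fold (SE 0.13, limma, adjusted p = 0.00881). The gap between the lowest siCHD8 array and the highest siCt array was wider than the spread within either group. By mean level the probe set stood at percentile 95.9 of those tested. Its difference was 0.85 without siCt EtOH replicate 3, the lowest of its arrays (limma, adjusted p = 0.0261).

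DEPTOR, the mTOR inhibitor, had 6.68, 6.46 and 6.24 in siCHD8 with EtOH, against 5.42, 5.58 and 5.56 in siCt with EtOH. The groups did not overlap, and the siCHD8 arrays were more widely spread than the siCt arrays. The difference was 0.94, or 1.92-fold (SE 0.12, limma, adjusted p = 0.00514).

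RRAGD had 6.66, 6.67 and 6.65 in siCHD8 with EtOH, against 5.89, 5.84 and 5.90 in siCt with EtOH. Both groups were tight, with an SD of 0.0083 in siCHD8 and 0.033 in siCt. The difference was 0.79, or 1.72-fold (SE 0.091, limma, adjusted p = 0.00401). RRAGC, the close relative of RRAGD, had 7.24, 7.01 and 7.05 in siCHD8 and 7.02, 6.99 and 6.73 in siCt, and its groups overlapped (difference 0.19, SE 0.11, limma, adjusted p = 0.543). The RRAGC difference was 0.10 without siCt EtOH replicate 3, the array at 6.73, and 0.12 without siCHD8 EtOH replicate 1, the array at 7.24.

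The remaining members were not called without hormone. FLCN (difference 0.25, limma, adjusted p = 0.355) and FNIP1 (difference 0.42, limma, adjusted p = 0.345) were above siCt on all 3 siCHD8 arrays, so that 5 of 10 members were above without overlap, against 5.63% of all probe sets. The size of the FNIP1 difference rested largely on siCt EtOH replicate 3 at 6.59, where the other siCt EtOH arrays read 7.42 and 7.43, and it was 0.14 without that array. FNIP2 differed by 0.01, TFEB by -0.10, TFE3 by -0.19 and MITF by -0.17, each with overlapping arrays. The TFE3 difference was -0.05 without siCt EtOH replicate 3, and the MITF difference was 0.02 without siCHD8 EtOH replicate 1. TFEB and MITF stood at percentiles 42.0 and 31.5 of mean level. In a fit of the 6 EtOH arrays alone the 3 called members kept the same differences at an adjusted p of 0.127 (limma), with 0 of all probe sets called. Such a fit has fewer residual degrees of freedom. The same holds for the R5020 arrays alone, where GPNMB had an adjusted p of 0.0325, against 0.0582 in the main fit (limma). Mean correlations within a condition were 0.986 to 0.988 for EtOH arrays and 0.990 to 0.992 for R5020 arrays. The cause of the lost calls was not tested.

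**Figure D2:**
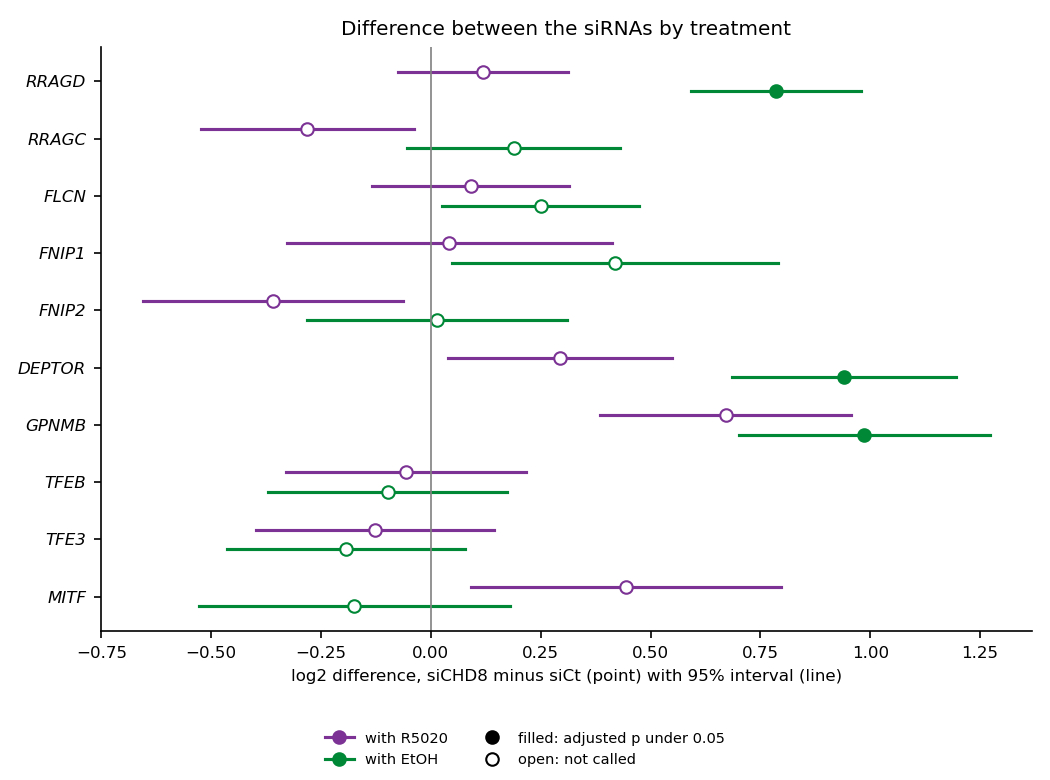
Log2 difference, siCHD8 minus siCt (horizontal axis), of the 10 members with R5020 (upper line of each pair) and with EtOH (lower line), with 95% intervals from limma; filled points were called. With EtOH the intervals of GPNMB, DEPTOR and RRAGD all lay above 0.59, and with R5020 the interval of GPNMB was 0.39 to 0.96.

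With R5020 the same comparison uses the other 6 arrays. None of the 10 members was called, against 0.189% of all probe sets (40 called, limma), while 5 members and 13.9% of all probe sets had an unadjusted p under 0.05. GPNMB had 9.06, 9.00 and 9.07 in siCHD8 with R5020, against 8.24, 8.32 and 8.56 in siCt with R5020. The siCHD8 arrays were again above all siCt arrays, by 0.67 or 1.59-fold (SE 0.13), but the limma adjusted p was 0.0582. Over the alternatives this p lay between 0.00489 and 0.252, on either side of the threshold. DEPTOR read 6.15, 6.09 and 6.13 in siCHD8 with R5020 and 5.81, 5.73 and 5.96 in siCt with R5020, without overlap and with a difference of 0.29 (SE 0.12, limma, adjusted p = 0.291). RRAGD read 6.48, 6.55 and 6.47 in siCHD8 and 6.38, 6.35 and 6.42 in siCt, a difference of 0.12 (95% interval -0.08 to 0.31). RRAGC was the 1 member below siCt on every siCHD8 array with R5020, with 7.16, 7.10 and 7.01 in siCHD8 and 7.31, 7.33 and 7.47 in siCt (difference -0.28, SE 0.11, limma, adjusted p = 0.285). MITF differed by 0.44 (limma, adjusted p = 0.253) and FNIP2 by -0.36 (limma, adjusted p = 0.267), neither called. Across both directions 5 members were above without overlap and 1 below, where 12.3% of all probe sets were above and 15.3% below.

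When the siRNA effect was averaged over both treatments, a contrast added after the data were seen, GPNMB, DEPTOR and RRAGD were called higher and no other member was called. This was 3 of 10 members, against 0.372% of all probe sets called higher (79 of 21214, with 294 lower). The mean difference was 0.83 for GPNMB (SE 0.095, limma, adjusted p = 0.000909), 0.62 for DEPTOR (SE 0.084, adjusted p = 0.00286) and 0.45 for RRAGD (SE 0.064, adjusted p = 0.00308). For RRAGD this mean joins a difference of 0.12 with R5020 and one of 0.79 with EtOH. CHD8 fell by 0.60 in this contrast (limma, adjusted p = 0.00403).

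The promoter sequences of the members were read to show which of them hold the letters that MiT/TFE factors or the progesterone receptor are known to bind. The 250 bases before each RefSeq start (GRCh38.p14) were read for 13 starts of 8 members, which leaves out RRAGD and DEPTOR. They were searched on both strands for CACGTG (the E-box), CACGTGA or its reverse TCACGTG (the CLEAR core, which contains the E-box), TCATGTG or its reverse CACATGA (the M-box core), TGTTCT or its reverse AGAACA (a receptor half-site) and ACANNNTGT (spaced half-site ends). Of 35116 promoters of the same length, 6.34% held the E-box, 3.31% the CLEAR core, 2.52% the M-box core, 12.4% the half-site and 4.61% the spaced form. GPNMB, the member with the largest siRNA difference, held the M-box core at 123 and 62 bases before its start, as shown in capitals in the 250 bases chr7:23246525-23246774 (plus strand). The E-box was searched as CACGTG alone, and that form was not in this window.
GPNMB: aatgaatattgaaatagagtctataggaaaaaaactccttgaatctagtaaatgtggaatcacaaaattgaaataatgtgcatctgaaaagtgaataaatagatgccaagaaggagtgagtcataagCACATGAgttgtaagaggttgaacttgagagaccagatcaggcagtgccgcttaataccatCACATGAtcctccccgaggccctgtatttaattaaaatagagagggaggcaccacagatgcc

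The CLEAR core was in RRAGC and FNIP1. The windows of 61 bases below are chr1:38859851-38859911 (minus strand), 112 bases before the RRAGC start, and chr5:131797159-131797219 and chr5:131797078-131797138 (minus strand), 175 and 94 bases before the FNIP1 start. FNIP2 held the M-box core 142 bases and the half-site 104 bases before its second start, with the M-box core in capitals at chr4:158805670-158805730 (plus strand). They are set side by side to show where the CLEAR core and the M-box core stand. RRAGD and DEPTOR, both called for the siRNA without hormone, were not searched, so the letters cannot be set against the calls. A match is a description of letters and not evidence of binding.
RRAGC: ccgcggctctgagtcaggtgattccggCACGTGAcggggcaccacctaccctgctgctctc
FNIP1 first window: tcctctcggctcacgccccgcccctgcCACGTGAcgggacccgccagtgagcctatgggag
FNIP1 second window: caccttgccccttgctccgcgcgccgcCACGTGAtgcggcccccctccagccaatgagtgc
FNIP2: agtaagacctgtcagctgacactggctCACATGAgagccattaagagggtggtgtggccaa

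In siCt cells, R5020 raised FNIP2, RRAGD and RRAGC. These 3 of 10 members were called higher, against 8.1% of all probe sets (1719 higher and 1273 lower), and no member was called lower. The median change was 0.13 over the 10 members and -0.05 over all probe sets.

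FNIP2, a partner of FLCN, had 5.79, 6.01 and 6.04 in siCt with R5020, against 5.09, 5.36 and 5.32 in siCt with EtOH. All R5020 arrays were above all EtOH arrays, by 0.69 or 1.62-fold (SE 0.14, limma, adjusted p = 0.00285). It was the 1 member that also met a stricter call rule, which asks for an adjusted p below 0.01 together with more than 1.5-fold. FNIP1, the other partner, had 7.38, 7.35 and 7.39 with R5020 and 7.42, 7.43 and 6.59 with EtOH, so the R5020 arrays lay within the EtOH range. Its change of 0.23 (SE 0.17, limma, adjusted p = 0.43) was -0.05 without siCt EtOH replicate 3. FLCN itself changed by -0.09 (95% interval -0.31 to 0.14).

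RRAGD had 6.38, 6.35 and 6.42 in siCt with R5020, against 5.89, 5.84 and 5.90 in siCt with EtOH. The rise was 0.51 or 1.42-fold (SE 0.091, limma, adjusted p = 0.00121), with no overlap. This comparison and that of the siRNAs without hormone share the siCt EtOH arrays, so the 2 higher values of RRAGD are both relative to the same 3 readings. RRAGC had 7.31, 7.33 and 7.47 in siCt with R5020, against 7.02, 6.99 and 6.73 in siCt with EtOH, a rise of 0.46 or 1.37-fold (SE 0.11, limma, adjusted p = 0.0127). This call was the least stable of the 3, with an adjusted p of 0.0518 without siCt EtOH replicate 3 and 0.0641 without siCt R5020 replicate 3 (limma).

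DEPTOR was above without overlap in siCt with R5020 (5.81, 5.73 and 5.96, against 5.42, 5.58 and 5.56 with EtOH) but was not called (change 0.31, SE 0.12, limma, adjusted p = 0.0992). GPNMB read 8.24, 8.32 and 8.56 with R5020 and 8.46, 8.50 and 8.06 with EtOH, a change of 0.03 (95% interval -0.25 to 0.32). The 3 transcription factors did not pass the test either. MITF read 3.25, 3.08 and 2.74 in siCt with R5020 and 3.52, 3.18 and 3.48 with EtOH (change -0.37, SE 0.17, limma, adjusted p = 0.161), and the change was -0.23 without siCt R5020 replicate 3, the array at 2.74. TFEB changed by -0.03 and TFE3 by -0.09, with overlapping arrays.

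**Figure D3:**
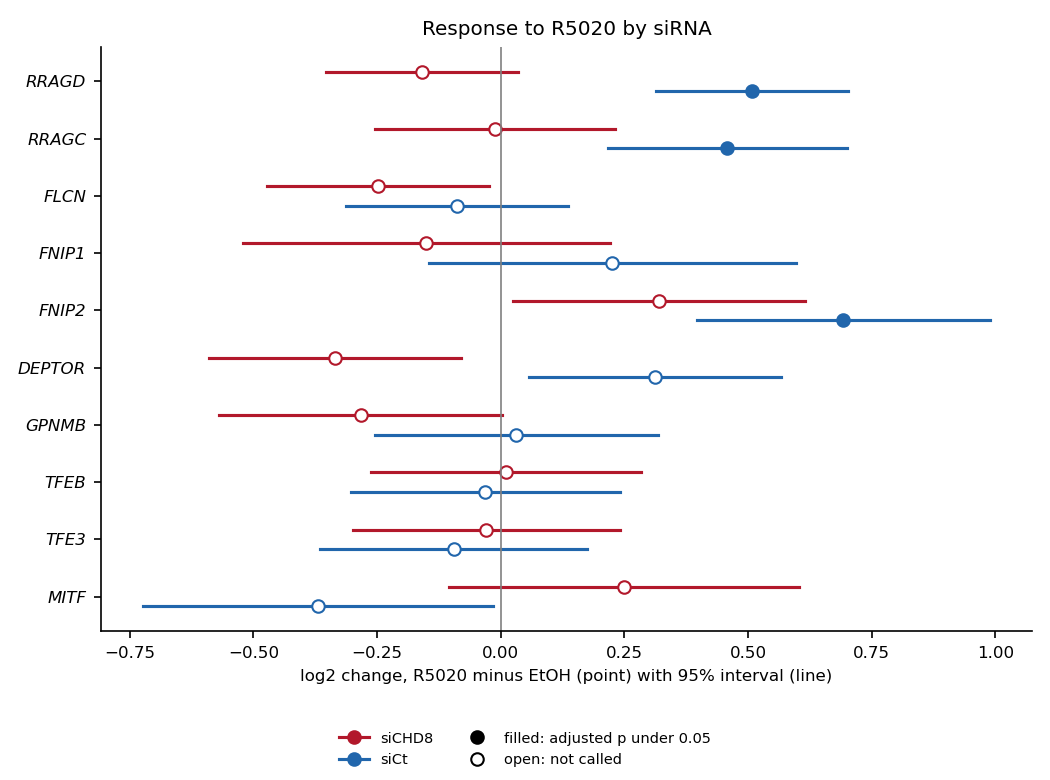
Log2 change, R5020 minus EtOH (horizontal axis), of the 10 members in siCHD8 (upper line of each pair) and siCt (lower line), with 95% intervals from limma; filled points were called. RRAGD and DEPTOR had intervals that did not overlap between siCHD8 and siCt, and the filled points (FNIP2, RRAGD and RRAGC) are all of siCt.

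In siCHD8 cells no member was called after R5020, against 11.5% of all probe sets (1281 higher and 1151 lower, limma). Before adjustment, 3 of 10 members (DEPTOR, FLCN and FNIP2) and 22.4% of all probe sets had a p below 0.05. Of the 10 members, 5 lay below their EtOH values on every R5020 array, namely DEPTOR, RRAGD, GPNMB, FLCN and FNIP1, against 14.2% of all probe sets. The same 5 members lay above siCt without overlap in the comparison of the siRNAs without hormone. Both counts use the same siCHD8 EtOH arrays, so they are not separate results. None was above without overlap, where 13% of all probe sets were.

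RRAGD had 6.48, 6.55 and 6.47 in siCHD8 with R5020, against 6.66, 6.67 and 6.65 in siCHD8 with EtOH (change -0.16, SE 0.091, limma, adjusted p = 0.342). Every R5020 array was lower. DEPTOR had 6.15, 6.09 and 6.13 with R5020 and 6.68, 6.46 and 6.24 with EtOH (change -0.33, SE 0.12, limma, adjusted p = 0.0943), and its EtOH arrays were spread over more than the gap to the R5020 arrays. The DEPTOR change was called without siCHD8 EtOH replicate 3 (-0.44, limma, adjusted p = 0.0254) and after quantile normalization (-0.36, adjusted p = 0.0375). GPNMB changed by -0.28 (9.06, 9.00 and 9.07 with R5020, against 9.43, 9.16 and 9.39 with EtOH, limma, adjusted p = 0.228). FLCN had 5.42, 5.44 and 5.31 with R5020 and 5.61, 5.70 and 5.61 with EtOH, a change of -0.25 (SE 0.11, limma, adjusted p = 0.171). FNIP2 had 5.45, 5.50 and 5.81 with R5020 and 5.48, 5.28 and 5.04 with EtOH, a change of 0.32 (SE 0.14, limma, adjusted p = 0.179), with 1 R5020 array inside the EtOH range. That change was 0.21 without siCHD8 EtOH replicate 3 and likewise 0.21 without siCHD8 R5020 replicate 3. RRAGC changed by -0.01 (95% interval -0.25 to 0.23), TFEB by 0.01, TFE3 by -0.03 and MITF by 0.25, all with overlapping arrays. For MITF the change was 0.05 without siCHD8 EtOH replicate 1, which read 2.83 where the other siCHD8 EtOH arrays read 3.43 and 3.40.

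The difference between the R5020 responses of siCHD8 and siCt was tested directly, since a call in siCt alone does not show that the responses differ. No member and 0% of all probe sets were called (limma, 0 of 21214), while 4 of 10 members and 9.56% of all probe sets (2027) had an unadjusted p under 0.05. RRAGD had the difference with the lowest p among the members, -0.67 (95% interval -0.94 to -0.39, limma, unadjusted p = 0.000118, adjusted p = 0.49), and its p was rank 5 over all probe sets. DEPTOR differed by -0.65 (95% interval -1.01 to -0.29, limma, unadjusted p = 0.00169, adjusted p = 0.49). In RRAGD and DEPTOR alike the R5020 arrays were all lower than the EtOH arrays in siCHD8 and all higher in siCt. The share of all probe sets that did so was not counted. RRAGC differed by -0.47 (95% interval -0.81 to -0.13) and MITF by 0.62 (95% interval 0.12 to 1.12). Of these 4 members, MITF was the 1 with the more positive response in siCHD8. The intervals of FNIP2 (-0.79 to 0.05), GPNMB (-0.72 to 0.09) and FNIP1 (-0.90 to 0.15) included 0, as did those of FLCN, TFEB and TFE3. Without siCt EtOH replicate 3 the difference was -0.38 for RRAGC, -0.17 for GPNMB and -0.10 for FNIP1. Over the alternatives the RRAGC difference lay between -0.53 and -0.31, and that of MITF, a dim probe set, between 0.38 and 0.73. Over the alternatives the adjusted p of RRAGD and DEPTOR lay between 0.219 and 0.767, and neither difference changed its sign.

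**Figure D4:**
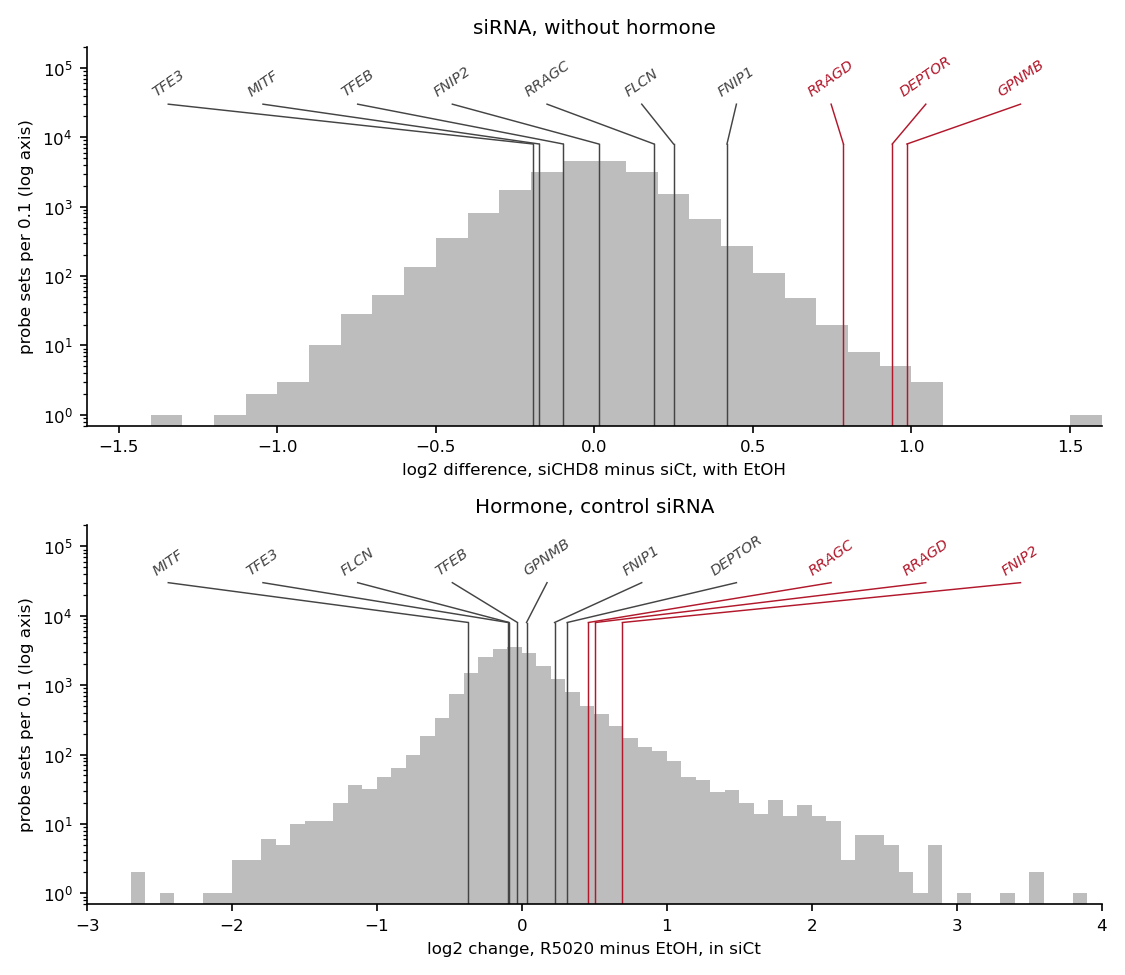
Number of probe sets (vertical log axis) by log2 difference in bins of 0.1 for siCHD8 minus siCt with EtOH (top) and R5020 minus EtOH in siCt (bottom), with the 10 members marked by lines, red where called. GPNMB, DEPTOR and RRAGD stand in the upper tail of the siRNA comparison, and FNIP2, RRAGD and RRAGC stand at 0.46 to 0.69 in the wider hormone distribution.

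Other genes of the pathway were read from 5 lists. The lists leave out the members, so RRAGC, RRAGD and DEPTOR, called above, do not count in them. Of all probe sets, R5020 had 6.04% called higher and 5.43% lower in siCHD8, and 8.1% higher and 6% lower in siCt. The Rag GTPases and Ragulator form the platform for mTORC1 at the lysosome. Of 7 measured genes of this list (RRAGA, RRAGB, Ragulator subunits and SLC38A9), none was called in any of the 5 planned comparisons. RRAGA and RRAGB, the partners of RRAGC and RRAGD, changed by -0.08 and 0.12 after R5020 in siCt, and the largest change in the list was that of LAMTOR4, a Ragulator subunit (-0.31, limma, adjusted p = 0.127). The list's median was -0.08 in siCt, against -0.05 over all probe sets. Of 11 measured GATOR and KICSTOR genes, which regulate the Rag pairs, none was called in siCt, where WDR24 of GATOR2 changed most (-0.36, limma, adjusted p = 0.0798). In siCHD8 the GATOR1 subunit DEPDC5 fell by 0.41 (limma, adjusted p = 0.0331), the 1 of 11 called lower, against 5.43% of all probe sets. Its change in siCt was -0.27, not called. Of 9 measured mTORC1 and mTORC2 subunits and assembly factors none was called in siCt, where TELO2 changed most (-0.30). The mTORC2 subunit RICTOR fell by 0.41 in siCHD8 (limma, adjusted p = 0.0282), the 1 of 9 called lower, against 5.43% of all probe sets. RICTOR changed by 0.08 in siCt, not called.

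Of 10 measured nutrient and stress inputs, DDIT4, a stress-induced inhibitor of mTORC1, rose in siCHD8 by 0.87 and in siCt by 0.63 (SE 0.15 each, limma, adjusted p = 0.00123 and 0.0116). No other gene of this list was called in siCt, so 1 of 10 was called higher there, against 8.1% of all probe sets. In siCHD8 the arginine sensor CASTOR1 rose by 0.62 (limma, adjusted p = 0.00963) and SESN1, a leucine-binding protein of the sestrin family, fell by 0.59 (limma, adjusted p = 0.00597). With DDIT4, 2 of 10 were called higher in siCHD8, against 6.04% of all probe sets, and 1 lower, against 5.43%. In siCt CASTOR1 changed by 0.36 and SESN1 by -0.16, neither called. The names of genes called in siCHD8 alone were chosen after their values were seen. For none of these lists was a difference between the responses called, but 0% of all probe sets were called there, so this does not set the lists apart.

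The list of lysosome and autophagy genes reported as MiT/TFE targets had 19 measured genes, among them TFEC, which is itself a factor of the family. After R5020 in siCt 3 of 19 rose, against 8.1% of all probe sets, and 1 of 19 fell, against 6% of all probe sets. GABARAPL1, an autophagosome protein of the ATG8 family, rose by 0.78 (SE 0.15), the autophagy receptor gene SQSTM1 by 0.49 (SE 0.13) and UVRAG, a regulator of autophagosome maturation, by 0.49 (SE 0.13), with limma adjusted p-values of 0.00177, 0.0153 and 0.0182. PPARGC1A, a coactivator of mitochondrial genes, fell by 0.92 (SE 0.21, limma, adjusted p = 0.0073). In siCHD8 GABARAPL1 (0.90), SQSTM1 (0.48) and WIPI1 (0.45), an early autophagosome protein, were called higher and none lower, where 6.04% of all probe sets were called higher. The median change of the 19 genes was -0.08 in siCHD8, against -0.02 over all probe sets, and 0.06 in siCt, against -0.05 over all probe sets. None of the 56 measured genes of the 5 lists was called for siCHD8 against siCt with EtOH or with R5020, where 0.292% and 0.189% of all probe sets were called. In the contrast averaged over both treatments 1 was called higher and 2 lower, against 0.372% and 1.39% of all probe sets. They are named after their values were seen. TSC1, a subunit of the complex that inhibits mTORC1, rose by 0.39 (limma, adjusted p = 0.0239), whereas DDIT4 fell by 0.45 (adjusted p = 0.0472) and HEXA, the alpha subunit of a lysosomal hexosaminidase, fell by 0.47 (adjusted p = 0.0165).

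**Figure D5:**
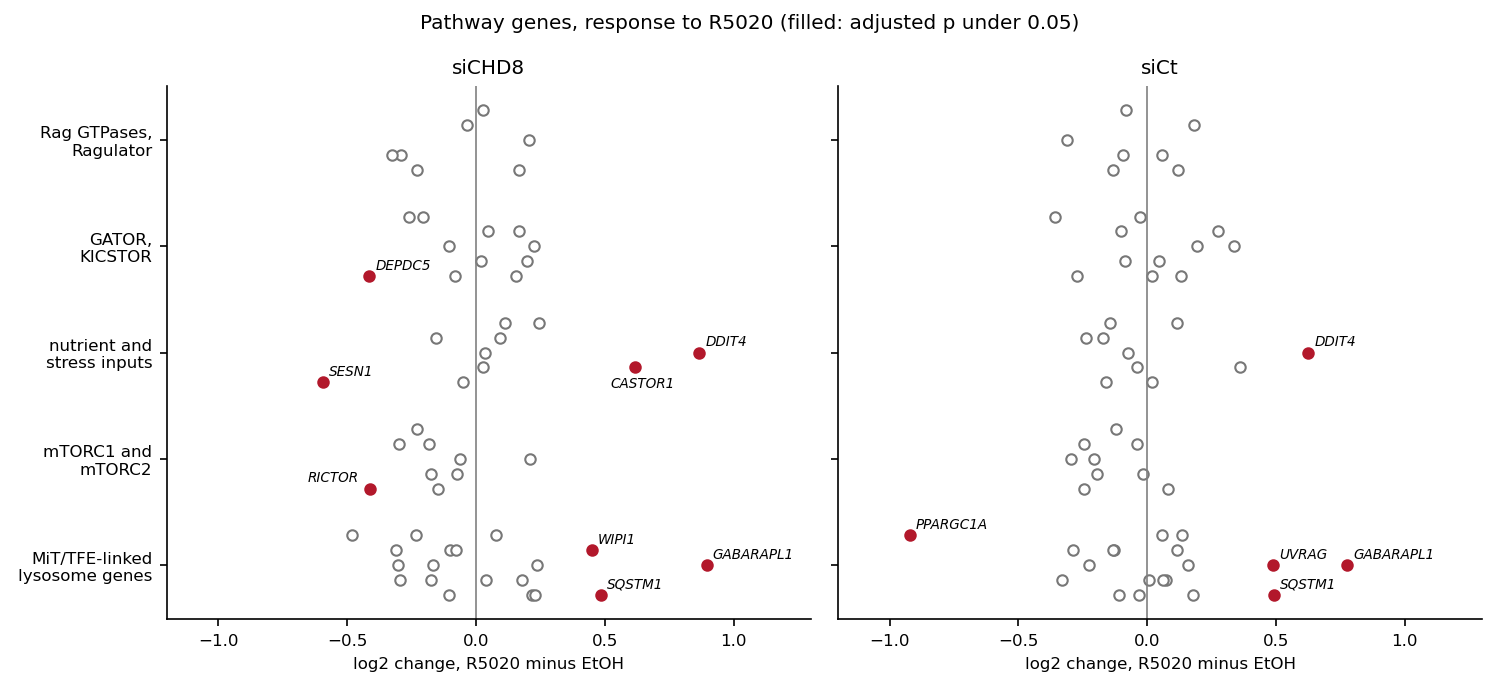
Log2 change, R5020 minus EtOH (horizontal axis), of each measured gene of the 5 pathway lists in siCHD8 (left) and siCt (right); points are genes, and filled points with names were called. DDIT4, GABARAPL1 and SQSTM1 are filled on both sides. The Rag GTPase and Ragulator row, which leaves out the members RRAGC and RRAGD, has no filled point.

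GPNMB and MITF are known from melanocytes and from macrophages and osteoclasts, so markers of those cells were read. Of 6 melanocyte markers 5 were measured, at percentiles 8.65 to 41.9 of mean level, and of 7 macrophage and osteoclast markers 6 were measured, at percentiles 0.245 to 30.0. None was called for siCHD8 against siCt with EtOH or R5020. In the contrast averaged over both treatments the melanocyte marker PMEL, also a glycoprotein of melanosomes, fell by 0.39 (limma, adjusted p = 0.0415). TYRP1 was not called (-0.25, limma, adjusted p = 0.160), and TYR (0.19), SOX10 (0.12) and MLANA (0.08) had positive differences, so the median of the 5 was 0.08, against 0.01 over all probe sets. Their part in the GPNMB result was not tested.

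The probe sets nearest in pattern were sought by the smallest root mean square difference over the 12 arrays, after taking each probe set's own mean away. FNIP2, the member with the highest mean of the R5020 changes in siCHD8 and siCt, was nearest to DRG1, ECI2, GOLIM4, PPA1 and NDUFAF5, at 0.0985 to 0.128 on the log2 scale against its own spread of 0.318. FLCN, the member with the lowest mean of those changes, was nearest to IGHMBP2, VGF, DIP2C, OLFML1 and PRSS59P, at 0.0727 to 0.0776 against its own spread of 0.148, so these are close partly because FLCN varied little. Added after the data were seen, the nearest to DEPTOR were ZNF91, GPR137C, LRRN1, DENND11 and RRAGD, the last at 0.165 against a DEPTOR spread of 0.365. RRAGD is thus among the 5 nearest of the 19460 probe sets with 1 symbol, which is a description of 12 arrays that share 4 conditions. The nearest to RRAGD were DENND11, ENPP3, ZFYVE16, CXADR and MEAF6 (0.128 to 0.143), and the nearest to GPNMB were CRYM, ADHFE1, TRA2A, POLR1HASP and DNAH1 (0.187 to 0.213).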

How the data were processed

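RNA (100 ng per sample) was measured on Affymetrix Human Gene ST arrays. The values as deposited are log2 intensities of probe sets, obtained by the authors from the scans through RMA normalization, with no statement in the labels or methods on version, probe set definition or filters. Gene symbols came from the platform annotation, which gives 1 symbol for 19460 of the 33297 probe sets, several for 1754 and none for 12083. Probe sets without a symbol were left out and 21214 were tested, of which 703 share all values with another. No further normalization was applied, and 0 columns were left unused.

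With limma 3.58.1 (R 4.3.3) the 12 arrays were fitted together, each of the 4 conditions having its own mean, and moderated tests were taken from eBayes after a check on simulated data. The number of arrays limits the precision, with a median SE of 0.13 for a comparison of 3 with 3 arrays and 0.19 for the difference between responses. The members, the lists and the rule that names genes were chosen with earlier results of these data known. The rule takes all members, CHD8, up to 4 genes per pathway list by size of change among those called for R5020 in siCt (otherwise the 1 with the largest change), and the 5 probe sets nearest in pattern to the members with the highest and the lowest mean of both R5020 changes. Promoter letters came from RefSeq (GRCh38.p14), which served for names and sequence only. Python 3.11.15 with pandas 2.3.3 and matplotlib 3.10.9 made the plots.

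Results were recomputed after centring arrays on the median, after quantile normalization, without the dimmest 25% of probe sets, with all probe sets tested, with the brightest probe set of each gene, with a trended robust variance, with array weights, with the compared conditions fitted by themselves, with a block for replicate number, with the stricter call rule, and without each array. The removal of siCt EtOH replicate 3 together with siCHD8 EtOH replicate 1, the contrast averaged over treatments, and the nearest probe sets of GPNMB, DEPTOR and RRAGD were chosen after seeing the data. Protein, phosphorylation and localization were not analysed here.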

Additional observations from a re-analysis of the deposited data

Results flagged for a closer look

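RRAGD and DEPTOR were the members whose R5020 arrays all lay below the EtOH arrays in siCHD8 and all above them in siCt. How many of all probe sets had this joint pattern was not counted. Taken singly, 14.2% of all probe sets were below without overlap in siCHD8 and 15.3% above in siCt. For RRAGD the difference between the responses, siCHD8 minus siCt, was -0.667 on the log2 scale (limma, unadjusted p = 0.000118, adjusted p = 0.49), from a change of -0.16 in siCHD8 and 0.51 in siCt. For DEPTOR it was -0.647 (limma, unadjusted p = 0.00169, adjusted p = 0.49), from a change of -0.33 in siCHD8 and 0.31 in siCt. Neither difference passes the adjustment over all probe sets. In both genes the siCHD8 EtOH arrays were the highest of the 4 conditions and the siCt EtOH arrays the lowest.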

How the results depend on the processing

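Over 60 pairs of a member and a comparison and 1300 alternative values, 1283 stayed on the same side of the threshold, 5 lost a call and 12 gained one. Most pairs were not called in the main fit, and leaving out an array outside a comparison cannot move its estimate. The total is therefore not a measure of how stable the calls were. Of the 1283, 47 changed sign, none of them a called value. The lost calls were RRAGC for R5020 in siCt (named in the report) and GPNMB, DEPTOR and RRAGD without hormone when the compared conditions were fitted alone, where 0 of 10 members and 0 of all probe sets were called (adjusted p = 0.127, limma). The members called for R5020 in siCt numbered 4 with array weights (DEPTOR at 0.32, limma, adjusted p = 0.0462), 2 without siCt EtOH replicate 3 or without siCt R5020 replicate 3, and 1 under the stricter rule, which left 1390 of 2992 probe sets in siCt and 1189 of 2432 in siCHD8. In siCHD8 it was 1 (DEPTOR) after quantile normalization, and 0 to 1 with single arrays left out. For the difference between responses, 0 to 1 probe sets were called with single arrays left out. The members called for siCHD8 against siCt with R5020 were 1 (GPNMB) after quantile normalization, without dim probe sets and with 1 probe set per gene. The count was also 1 (GPNMB) with a trended and robust variance, with array weights and with the compared conditions alone. It was 1 as well with siCt EtOH replicate 3 and siCHD8 EtOH replicate 1 left out together. With single arrays left out it was 0 to 1, the 1 being seen without either of these EtOH arrays.

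Counts over all probe sets moved more than those of the members. With EtOH (62) they were 10 under the stricter rule, 40 after median centring, 111 without dim probe sets, 15 with all probe sets, 169 with a trended and robust variance, 32 with array weights, 37 without both doubted arrays and 12 to 53 with single arrays left out. With R5020 (40) they were 2, 95, 77, 2, 121, 916, 280 and 1 to 105 for the same settings, 63 with 1 probe set per gene and 204 with the compared conditions alone. Averaged over treatments (373) they were 40 under the stricter rule, 167 with all probe sets and 606 with a trended and robust variance. They were 815 with array weights, 858 without both of those EtOH arrays and 166 to 755 with single arrays left out. The causes were not tested.

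The replicate numbers did not pair the arrays: over 18 same-numbered pairs the correlation of deviations was -0.247 to 0.196, and 1 of 12 arrays was closest to its own number. With the replicate block, 20 probe sets were called with EtOH, 5 with R5020 and 231 averaged over treatments, and the calls of members were unchanged. Each member had 1 probe set, so trying another probe set gave no value. The 3 arrays of a condition limit the precision of every member, so a comparison that was not called does not show equal levels.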
